A study of Mus musculus with 18 samples.

Results

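The p53 set comprised 10 mouse genes, the transcription factor p53 itself (Trp53) and 9 of its best-known target genes, Cdkn1a, Mdm2, Ccng1, Sesn1, Phlda3, Fas, Bax, Trp53inp1 and Zmat3. A member was taken from the array where a probe set carried its symbol and no other in the platform annotation, and where several did, the brightest of them on average across the 18 arrays stood for the gene. By this rule 8 of the 10 members were measured, among 18193 genes in all. No probe set carried the symbol of Trp53 or Bax alone, so these members were not analysed here, and the results concern 8 target genes and not p53 itself.

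RNA from 18 mouse lung samples had been hybridised to an Affymetrix 3' expression array, 1 array per sample. Mice of the B6C3F1/N hybrid strain entered the inhalation study at 5 to 6 weeks of age, with 50 males and 50 females at each of 4 concentrations of cobalt metal particle aerosol, 0, 1.25, 2.5 and 5 mg/m3, breathed for 6 hours on each of 5 days a week over at most 105 weeks. The 6 control lungs came from vehicle animals, the 6 spontaneous tumours are labelled as lung tumours that arose on their own, and the 6 cobalt tumours as lung tumours found with cobalt treatment. Tumours were cut out of the surrounding lung and frozen. The cobalt concentration, age at collection and sex behind each array were not given in the sources used here, and whether each array represents a mouse of its own is not stated, so a p-value here reflects only how far these samples spread, which may be technical.

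The p53 protein is held at a low level by the ubiquitin ligase Mdm2 and is released from it when DNA is damaged or an oncogene is active. It then binds pairs of short half-sites near its target genes and raises their transcription, which can halt the cell cycle, start apoptosis, aid DNA repair or restrain growth signalling. In mouse lung, p53 limits the progression of adenomas to carcinomas, and its own activity is set largely at the level of the protein, which an expression array does not measure.

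The sequences of the start-site regions are shown first because half-sites are what p53 reads. RefSeq windows (build GRCm38.p6) of 300 bases, from 250 before to 50 after a transcription start, were listed for 6 of the 8 measured members. They were searched for the p53 half-site consensus, a palindrome of 10 letters that reads the same on both strands. A full site was counted where a pair of half-sites lay at most 13 bases apart with at most 2 mismatches in all. Capitals mark half-sites without mismatch and the pair with the fewest mismatches, so further matches can stand in lower case. Up to 40 bases on either side are printed, 5′ to 3′ on the strand of the gene.
Cdkn1a: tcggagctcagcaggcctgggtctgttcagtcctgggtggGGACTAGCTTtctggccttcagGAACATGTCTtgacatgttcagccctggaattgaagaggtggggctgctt
Ccng1: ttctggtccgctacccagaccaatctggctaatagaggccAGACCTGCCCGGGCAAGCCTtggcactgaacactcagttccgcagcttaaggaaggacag
Sesn1: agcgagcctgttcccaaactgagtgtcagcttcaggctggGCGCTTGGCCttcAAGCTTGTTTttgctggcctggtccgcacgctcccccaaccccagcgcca
Mdm2: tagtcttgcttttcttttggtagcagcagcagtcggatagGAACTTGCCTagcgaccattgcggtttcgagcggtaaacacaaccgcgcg
The Cdkn1a stretch, chr17:29090866-29090977 on the plus strand, held 2 half-sites without mismatch, which began 73 and 51 bases before the start with 12 bases between them. The 10 letters directly after the second one, in lower case, fit the consensus with 1 mismatch. An adjoining pair there thus also met the rule for a full site. The Ccng1 stretch, chr11:40755422-40755521 on the minus strand, held an adjoining pair with 1 mismatch, which began 195 and 185 bases before the start. In the Sesn1 stretch, chr10:41887213-41887315 on the plus strand, the pair began 186 and 173 bases before the start, with 3 bases between and 2 mismatches. The Mdm2 stretch, chr10:117710895-117710984 on the minus strand, held 1 half-site that began 186 bases before the start and no full site. Cdkn1a and Sesn1 each had another listed start without a match, and the Phlda3 and Fas windows had none. Of all 32851 windows in the table, 8.36% held a half-site and 4.09% a full site. A match is a description of these letters, and p53 binding was not measured. Among the 3 members with a full site, Ccng1 was called higher in tumours, Sesn1 lower and Cdkn1a neither.

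The arrays were alike in scale, with medians of 6.32 to 6.45 on the log2 scale, and 18 arrays in all limit the precision. The alveolar type 2 marker Sftpc was bright on every array, at 14.27 to 15.26, near the top of the scale. Of 9 alveolar type 2 markers measured, 4 were higher and none lower in spontaneous tumours by limma, and 6 were higher and 1, Lyz2, lower in cobalt tumours. Their mean was 12.84 to 13.10 in control lung, 12.41 to 13.93 in spontaneous tumours and 13.50 to 13.64 in cobalt tumours. All 10 endothelial markers were lower in both tumour groups by limma, and their mean level was 11.37 to 11.76 in control lung, 7.94 to 9.39 in spontaneous tumours and 7.75 to 10.56 in cobalt tumours. Cobalt tumour 6 stood apart, with a mean correlation over genes of 0.969 with control lungs and 0.945 with the other cobalt tumours, and it held the highest endothelial level of any tumour. Control lung 6 carries a free-text description of a spontaneous tumour, although every other label calls it a control. Its mean correlation was 0.989 with the other control lungs and 0.920 with spontaneous tumours. Xist, the RNA of the inactive X chromosome, was above a log2 level of 10 in all control lungs, in 2 spontaneous and in 4 cobalt tumours. The mean of Y-linked genes was 3.91 to 4.12 on those arrays and 7.48 to 8.27 on the others. By these RNAs all control lungs read as female and both tumour groups were mixed. Sex was thus uneven between groups, and the main fit did not adjust for it.

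The 8 target genes did not move as a block (the plot of levels by array). Against control lung, spontaneous tumours had 2 members higher, Ccng1 and Zmat3, and 2 lower, Sesn1 and Fas, at a limma adjusted p under 0.05, and 4 members were not called. Over all genes, 16.4% were called higher and 18.2% lower in that comparison. Cobalt tumours had 2 members higher, again Ccng1 and Zmat3, and 3 lower, Sesn1, Fas and Phlda3, beside 14.7% and 19.3% of all genes. Both comparisons share the same 6 control lungs, so their agreement is not independent. Directly compared, cobalt tumours had no member higher and 1 lower than spontaneous tumours, Phlda3, beside 0.044% and 0.0385% of all genes. At an unadjusted p under 0.05, which 11.6% of all genes reached there in either direction, 1 member was higher, Fas. At that level 3 were lower, Phlda3, Ccng1 and Zmat3. The exact permutation test could call none between the tumour groups, since its smallest p came to 0.352 after adjustment over all genes. The median log2 difference of the 8 members was -0.05 in spontaneous tumours and -0.24 in cobalt tumours against control lung, where the median over all genes was -0.03 in both.

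**Figure D1:**
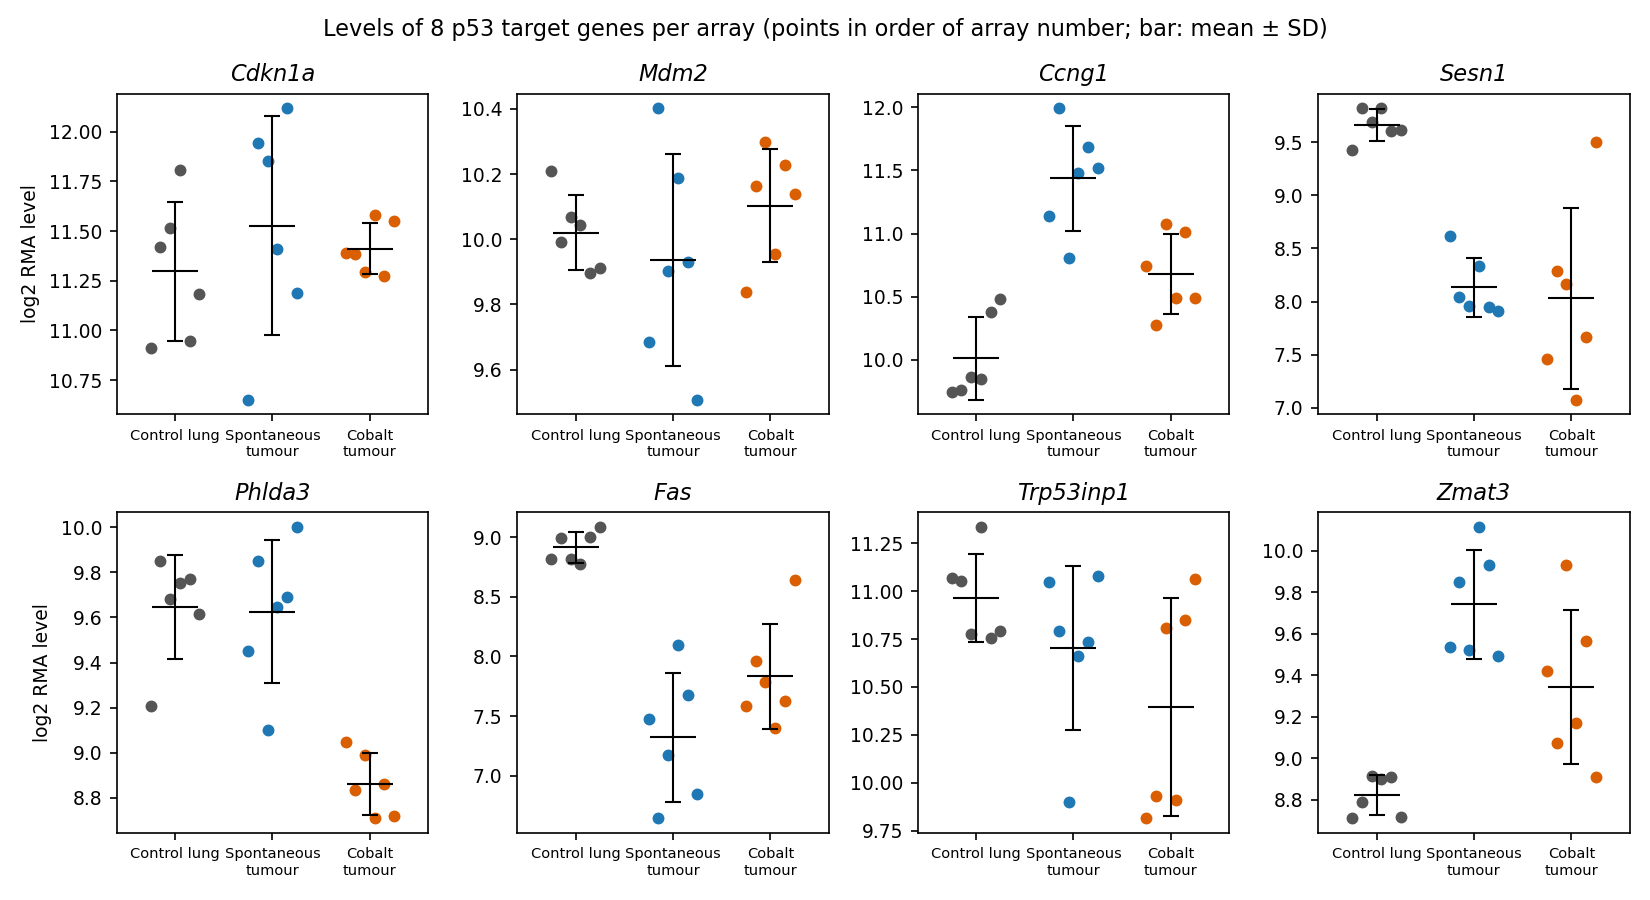
Log2 RMA level of each measured member on the 18 arrays, with points in order of array number and a bar for the group mean ± SD (n = 6 per group); each panel has its own vertical scale. Ccng1 and Zmat3 lay higher in spontaneous tumours than in any control lung, Sesn1 and Fas lower, and Phlda3 was low in the cobalt tumours alone among these groups.

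By ranges that do not overlap, spontaneous tumours had the same 2 members wholly above control lung and the same 2 wholly below it, beside 9.21% and 11.9% of all genes. Cobalt tumours had none wholly above and 2 wholly below, Phlda3 and Fas, beside 8.1% and 10.8%. Between the tumour groups, no member was wholly higher in cobalt tumours, beside 0.192% of all genes, and 1, Phlda3, was wholly lower, beside 0.423%. In bulk samples, fewer cells of a type and less RNA per cell cannot be told apart, which applies to every level given here.

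Cdkn1a encodes p21, the inhibitor of cyclin-dependent kinases through which p53 halts the cell cycle. It was the brightest member, brighter than 97.0% of genes. Its level ranged from 10.91 to 11.81 in control lung with a median of 11.30, from 10.65 to 12.12 in spontaneous tumours with a median of 11.63, and from 11.27 to 11.58 in cobalt tumours with a median of 11.39. The 3 groups overlapped throughout. Spontaneous tumours held both the lowest array, tumour 1, and the highest, tumour 5, and no cobalt tumour lay outside the range of the control lungs. The log2 difference from control lung was 0.23 ± 0.21 (SE) in spontaneous tumours (limma adjusted p = 0.427) and 0.11 ± 0.21 in cobalt tumours (adjusted p = 0.723). The 95% interval of the latter ran from -0.33 to 0.56, so a change within that range remains possible. The SD between arrays was 0.55 in spontaneous tumours and 0.13 in cobalt tumours (n = 6 each). The other Cdkn1a probe set, which is dimmer, differed from control lung by 0.15 and 0.01.

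Mdm2 encodes the ligase that degrades p53 and is itself a p53 target. Its level was 9.90 to 10.21 in control lung (median 10.02), 9.51 to 10.40 in spontaneous tumours (median 9.92) and 9.84 to 10.30 in cobalt tumours (median 10.15). Spontaneous tumours again reached past the controls on both sides, with tumour 2 the highest and tumour 6 the lowest. Differences from control lung were -0.08 ± 0.13 (95% interval -0.35 to 0.18, limma adjusted p = 0.642) in spontaneous tumours and 0.08 ± 0.13 (-0.18 to 0.35, adjusted p = 0.668) in cobalt tumours. These were the narrowest intervals among the 8 members.

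Ccng1, which encodes cyclin G1, a partner of protein phosphatase 2A that acts on Mdm2, was the member that rose most. Control lungs 1 to 4 lay at 9.74 to 9.86 and lungs 5 and 6 at 10.38 and 10.48. Spontaneous tumours ranged from 10.81 to 11.99 with a median of 11.50, and cobalt tumours from 10.28 to 11.07 with a median of 10.62. Every spontaneous tumour was above every control lung, and 5 of 6 cobalt tumours were, with cobalt tumour 2 between the control lungs. Of those 5, cobalt tumours 4 and 6 were only just above control lung 6, both at 10.49 against 10.48. The rise was 1.42 ± 0.20 on the log2 scale in spontaneous tumours, 2.68-fold (limma adjusted p = 2.87e-05), and 0.67 ± 0.20 in cobalt tumours, 1.59-fold (adjusted p = 0.0132). The call in cobalt tumours rested on the probe set chosen. The other 2 Ccng1 probe sets rose by 1.07 and 1.25 in spontaneous tumours (adjusted p = 0.000298 and 0.00123 over all probe sets) but differed by 0.17 and 0.15 in cobalt tumours (adjusted p = 0.531 and 0.712). The mean of the 3 probe sets differed by 0.33 in cobalt tumours (adjusted p = 0.230). Between the tumour groups all 3 probe sets were lower in cobalt tumours, by 0.76 to 1.10 in size, and none passed the threshold (adjusted p = 0.163 for the probe set used in the gene-level fit).

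Zmat3, an RNA-binding zinc finger protein that acts in p53-dependent tumour suppression, showed the tightest controls. The control lungs lay within 8.71 to 8.91. Spontaneous tumours ranged from 9.49 to 10.12 (median 9.69) and cobalt tumours from 8.91 to 9.93 (median 9.29). All spontaneous tumours lay above the controls, and of the cobalt tumours only number 6, the array that resembled control lung, did not. The rise was 0.92 ± 0.15 in spontaneous tumours, 1.89-fold (limma adjusted p = 0.000142), and 0.52 ± 0.15 in cobalt tumours, 1.44-fold (adjusted p = 0.0116). Cobalt tumours were 0.40 lower than spontaneous tumours on the log2 scale, a difference that did not pass (-0.40 ± 0.15, 95% interval -0.71 to -0.08 before adjustment, adjusted p = 0.307). The mean of the alveolar type 2 markers was above every control lung in all 6 cobalt tumours and in 4 of 6 spontaneous tumours. In spontaneous tumours 2 and 6 it was 12.58 and 12.41, below every control lung. Those tumours had Ccng1 at 11.99 and 11.52 and Zmat3 at 9.85 and 9.49, above every control lung. The part of alveolar type 2 cells in the Ccng1 and Zmat3 levels was not tested.

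Sesn1, a sestrin that restrains the growth kinase complex mTORC1 and limits oxidants, moved the other way. Its level was 9.43 to 9.82 in control lung, 7.91 to 8.61 in spontaneous tumours and 7.08 to 9.51 in cobalt tumours. In cobalt tumours the arrays lay at 7.46, 8.29, 8.17, 7.08, 7.67 and 9.51 for tumours 1 to 6. Cobalt tumour 6 lay among the control lungs and the other 5 below all of them, which gave this group the widest spread of any member, an SD of 0.85 against 0.50 without that tumour. Sesn1 fell by 1.53 ± 0.28 in spontaneous tumours, to a level 2.88-fold lower (limma adjusted p = 0.000465), and by 1.63 ± 0.28 in cobalt tumours, 3.10-fold lower (adjusted p = 0.000255). Without cobalt tumour 6 the fall in cobalt tumours was 1.93 ± 0.19. Of its other 3 probe sets, those with differences of -1.23 and -0.29 in spontaneous tumours passed (adjusted p = 0.00460 and 0.0219 over all probe sets), the latter at a dim mean level of 4.77, and the one with -0.95 did not (adjusted p = 0.053). In cobalt tumours all 3 passed, with differences of -1.38, -0.39 and -1.07. The difference between the tumour groups was -0.10 ± 0.28 (95% interval -0.70 to 0.50, adjusted p = 0.928).

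Fas, the death receptor that starts apoptosis when its ligand binds, fell in both tumour groups. It was the dimmest member, brighter than 59.4% of genes. Control lungs lay at 8.78 to 9.09, spontaneous tumours at 6.64 to 8.10 (median 7.33) and cobalt tumours at 7.40 to 8.64 (median 7.71). Every tumour was below every control lung, and the nearest to them was cobalt tumour 6. The fall was 1.59 ± 0.22 in spontaneous tumours, 3.02-fold (limma adjusted p = 3.47e-05), and 1.08 ± 0.22 in cobalt tumours, 2.11-fold (adjusted p = 0.00109). The cobalt tumours were 0.51 ± 0.22 higher than the spontaneous tumours, which did not pass (95% interval 0.04 to 0.99 before adjustment, adjusted p = 0.377).

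Like Sesn1 and Fas, the mean levels of markers of several cell types of normal lung had lower medians in both tumour groups than in control lung. Endothelial markers were among them (the plot of members against marker levels). The mean over 10 endothelial genes was lower in every tumour than in any control lung, and cobalt tumour 6, with an endothelial level of 10.56 against 7.75 to 8.99 in the other cobalt tumours, also had the highest Sesn1 and Fas of all tumours. By median, both tumour groups were also below control lung for 8 alveolar type 1 markers. Their means were 11.94 to 12.27 in control lung, 9.79 to 11.10 in spontaneous tumours and 9.54 to 12.05 in cobalt tumours. Both were below it too for 8 fibroblast markers, at 11.53 to 12.01, 8.22 to 10.67 and 8.46 to 11.31. The same was seen for 5 club cell markers, at 12.92 to 13.08, 9.67 to 12.10 and 9.17 to 12.86. In each of these 3 lists cobalt tumour 6 was the highest tumour, and in the alveolar type 1 list it lay among the control lungs. Not all markers fell. By limma, 2 fibroblast markers, Col1a1 and Col3a1, were higher and 5 lower in spontaneous tumours, and none higher and 5 lower in cobalt tumours. Of the club cell markers, 1 was higher and 3 lower in spontaneous tumours, and 1 higher and 4 lower in cobalt tumours. Over all genes, 16.4% were higher and 18.2% lower in spontaneous tumours, and 14.7% and 19.3% in cobalt tumours. T and NK cell markers, of which 8 of 10 were measured, averaged 7.35 to 7.87 in control lung, 6.21 to 7.67 in spontaneous tumours and 6.18 to 6.86 in cobalt tumours. Among these, 6 of 8 were lower in spontaneous tumours and 7 of 8 in cobalt tumours. The part of these cell types in the lower Sesn1 and Fas levels was not tested.

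**Figure D2:**
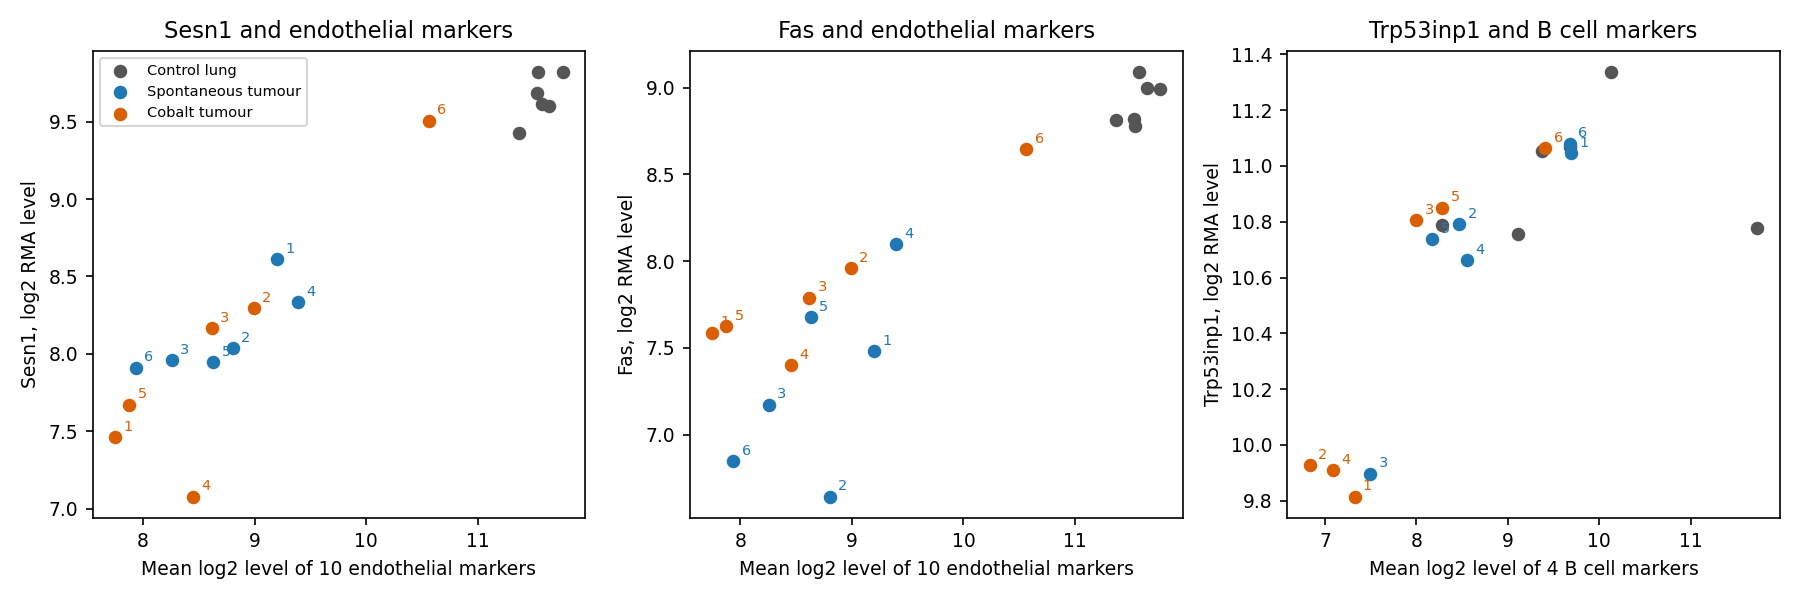
Log2 RMA level of Sesn1 and Fas against the mean log2 level of 10 endothelial markers, and of Trp53inp1 against that of 4 B cell markers, Ighm among them. Each point is an array, and tumours carry their array number. Cobalt tumour 6 lay closest to the control lungs in the Sesn1 and Fas panels, and the 4 tumours with Trp53inp1 below 10 had the 4 lowest B cell marker levels.

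Trp53inp1, a stress-induced nuclear protein that promotes p53-dependent cell death and autophagy, split the tumours. Control lungs lay at 10.76 to 11.34. Spontaneous tumours 1 to 6 had levels of 11.05, 10.79, 9.90, 10.66, 10.74 and 11.08, and cobalt tumours 1 to 6 had levels of 9.81, 9.93, 10.81, 9.91, 10.85 and 11.06. Thus 1 spontaneous and 3 cobalt tumours lay between 9.81 and 9.93 and the other 8 tumours between 10.66 and 11.08, next to or within the control range. The group differences from control lung were -0.26 ± 0.24 (limma adjusted p = 0.417) and -0.57 ± 0.24 (adjusted p = 0.073). Without cobalt tumour 6 the latter was -0.70 ± 0.23 (adjusted p = 0.0230), and it also passed without cobalt tumour 5 or spontaneous tumour 3. The other Trp53inp1 probe set, at a mean of 7.12, differed by 0.15 and -0.06.

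The 4 tumours with low Trp53inp1 were those with the least immunoglobulin RNA. The gene most like Trp53inp1 over the 12 tumours was Ighm, the heavy chain of IgM, with a Pearson r of 0.955 among 11704 genes compared, followed by the light chain genes Igkv8-30 (0.944) and Iglv1 (0.930). Ighm was at 9.72 in spontaneous tumour 3 and at 9.04, 8.30 and 7.83 in cobalt tumours 1, 2 and 4, against 11.94 to 14.78 in the other 8 tumours. The likeness to Ighm was 0.933 within spontaneous and 0.971 within cobalt tumours. The mean of 4 measured B cell markers, Ighm among them, was 8.28 to 11.73 in control lung, 7.50 to 9.69 in spontaneous tumours and 6.83 to 9.41 in cobalt tumours. The same 4 tumours had its lowest levels. In cobalt tumours the SD was 2.85 for Ighm, 0.31 for Cd79a and 0.51 for Cd79b, so this mean is not independent of the Ighm values. These values describe the arrays, which share RNA of all their cells, and the part of B lineage cells in the Trp53inp1 level was not tested.

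Phlda3, a small protein with a pleckstrin homology domain that competes with the kinase AKT for membrane lipids, was the only one of the 8 members called between the tumour groups. Control lungs lay at 9.21 to 9.85 (median 9.72), spontaneous tumours at 9.10 to 10.00 (median 9.67) and cobalt tumours at 8.71 to 9.05 (median 8.85). Every cobalt tumour was below every array of the other groups, with the lowest spontaneous tumour, number 3, at 9.10 and the highest cobalt tumour, number 1, at 9.05. Cobalt tumour 6, which resembled control lung in Sesn1, Fas and Zmat3, was among the lowest for Phlda3, at 8.72. Against control lung Phlda3 differed by -0.79 ± 0.14 on the log2 scale in cobalt tumours, a 1.72-fold lower level (limma adjusted p = 0.000231). In spontaneous tumours the difference from control lung was -0.02 ± 0.14 (95% interval -0.31 to 0.26, adjusted p = 0.919). Directly compared, cobalt tumours were 1.70-fold lower than spontaneous tumours (log2 difference -0.76 ± 0.14, 95% interval -1.05 to -0.48, adjusted p = 0.0380). The exact two-sided permutation test over the 12 tumours gave p = 0.00216, the smallest that its assignments of arrays allow, which was 0.352 after adjustment over all genes. The call against spontaneous tumours was kept in 11 of 30 alternative settings. It was lost (adjusted p of 0.0537 to 0.110) when any 1 of 12 arrays was left out, namely control lungs 2 to 6, spontaneous tumours 2, 5 and 6 and cobalt tumours 1 to 4. With only the 12 tumour arrays in the fit its adjusted p was 0.246, and among arrays with high Xist it was 0.333 with a log2 difference of -0.97.

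**Figure D3:**
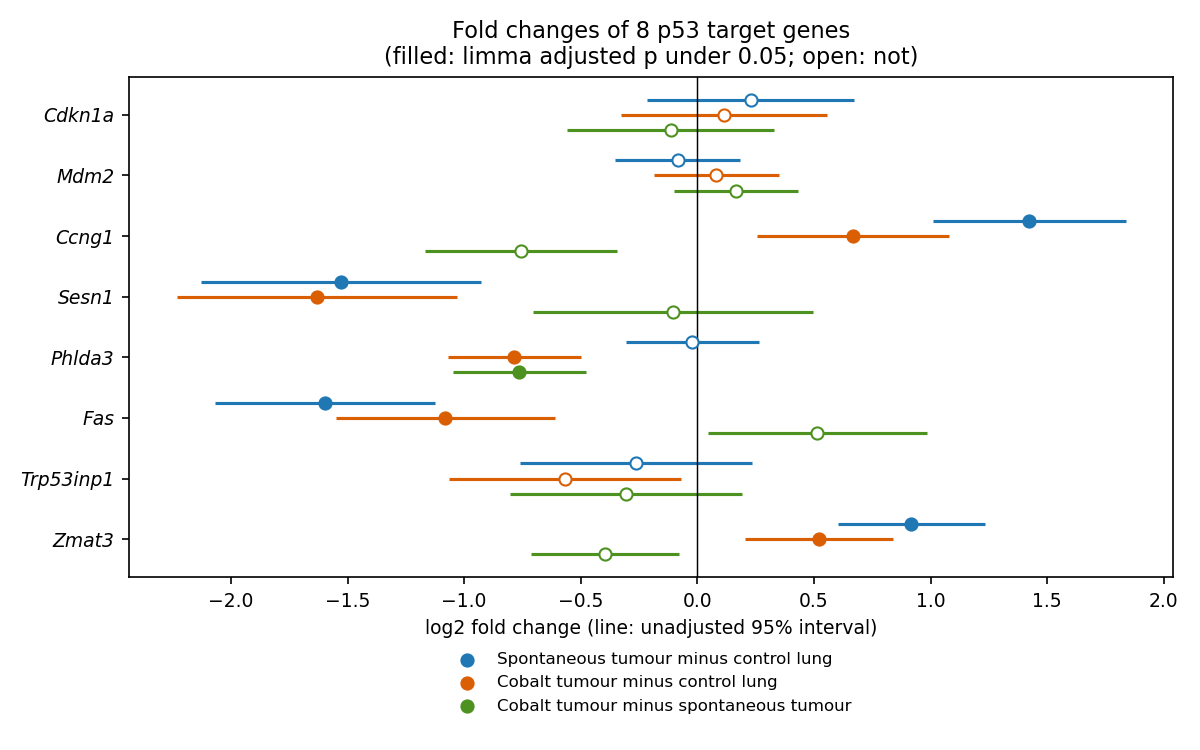
Log2 fold change of each member in 3 comparisons, with unadjusted 95% intervals from limma (n = 6 arrays per group); filled points have an adjusted p under 0.05. The intervals of Cdkn1a and Mdm2 spanned 0 in every comparison, and Phlda3 was the single filled point between cobalt and spontaneous tumours.

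From tumour to tumour, members rose and fell together only in part. Over the 12 tumours, 28 pairs of members were compared by permutation tests of Pearson's r with 100000 resamples. For 18 of them r was above 0, 3 had a p under 0.05 and 2 had an adjusted p under 0.05, in both cases pairs with Ccng1. The permutations took no account of tumour group, so a pooled r and its p also reflect differences between the tumour groups. Ccng1, Zmat3 and Phlda3 were each lower in cobalt than in spontaneous tumours at an unadjusted limma p under 0.05. For Ccng1 and Zmat3, r was 0.807 (p = 0.0015 by permutation, adjusted p = 0.0211) and Spearman's rho was 0.776 (adjusted p = 0.055). Without the 2 tumours farthest from the median Ccng1 level r was 0.789. Within groups it was 0.558 in spontaneous tumours (exact permutation p = 0.267, n = 6) and 0.906 in cobalt tumours (exact p = 0.0167, n = 6), and without cobalt tumour 6 the pooled value was 0.788 with an adjusted p of 0.0585.

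The other pair was Ccng1 and Phlda3. Since the tumour groups did not overlap in Phlda3, r is given within them, 0.842 in spontaneous tumours (exact permutation p = 0.0361, n = 6) and 0.597 in cobalt tumours (exact permutation p = 0.229, n = 6). Spontaneous tumour 3 was lowest in both genes among spontaneous tumours, and tumours 2 and 6 were the 2 highest in Phlda3. Sesn1 and Fas had a pooled r of 0.567 (permutation adjusted p = 0.263), which was 0.205 without cobalt tumour 6. Within groups their r was 0.989 in cobalt tumours (exact permutation p = 0.00139, n = 6) and 0.474 in spontaneous tumours (exact permutation p = 0.335, n = 6). Cobalt tumours 1 to 5 also ranked alike in both genes, from tumour 4 as the lowest through 1, 5 and 3 to 2. Cdkn1a and Mdm2, called in no comparison, had no pair past the threshold.

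**Figure D4:**
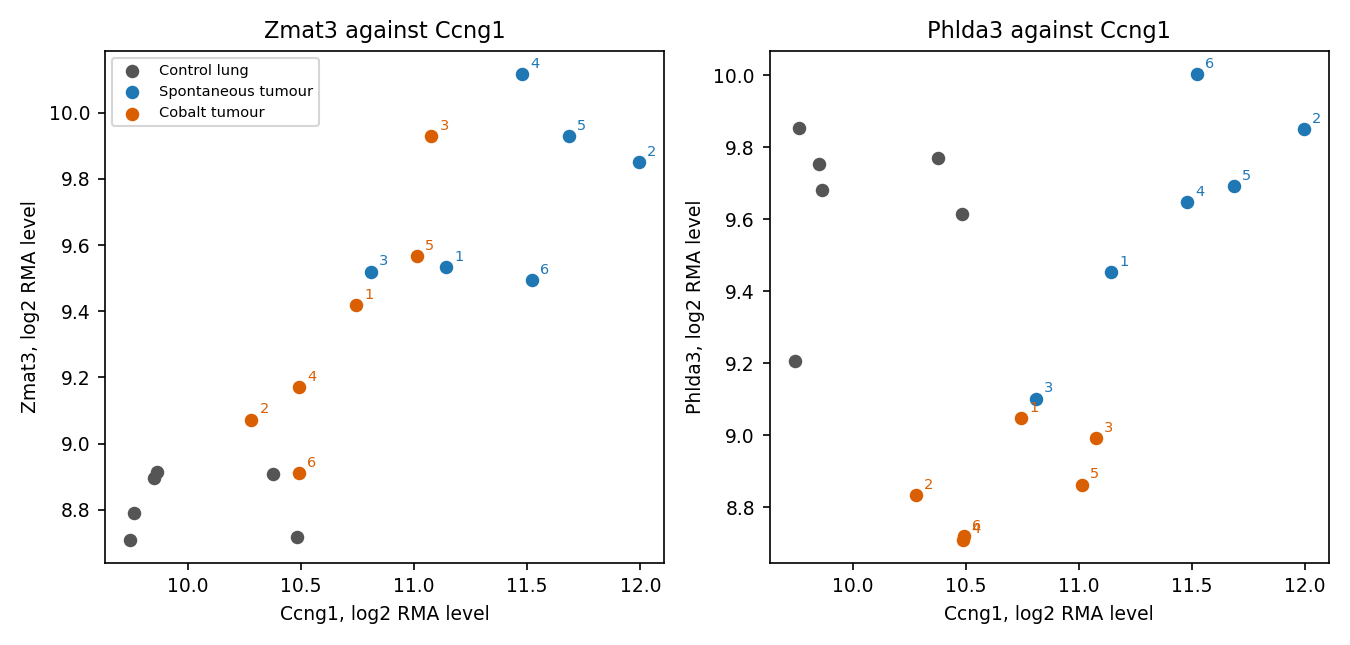
Log2 RMA level of Zmat3 and of Phlda3 against Ccng1 on each array; tumours carry their array number. In the left panel the tumours run from low to high in both genes, and in the right panel the cobalt tumours lie below all other arrays in Phlda3 at Ccng1 levels of 10.28 to 11.07.

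The genes whose levels most resembled each member over the 12 tumours differed from member to member. For Ccng1 they were Ndufs4, a subunit of respiratory complex I, with r of 0.936, then Cog4 (0.933) and Txndc9 (0.915). Zmat3 was most like Ift22 (0.897), Rps27l (0.866) and Exoc4 (0.862), and Rps27l, a ribosomal protein paralogue, is itself a p53 target. Sesn1 was most like Gyg (0.973), Sec14l3 (0.967) and Scnn1b (0.965), each value falling to between 0.927 and 0.952 without cobalt tumour 6. For Fas they were Ctcf (0.866), Il6ra (0.865) and Nipbl (0.860), and for Phlda3 Gnpda1, Vdac3 and Rgs1. For Phlda3, whose tumour groups did not overlap, the values are given within spontaneous and within cobalt tumours, 0.787 and 0.911 for Gnpda1, 0.904 and 0.341 for Vdac3 and 0.889 and 0.465 for Rgs1. Cdkn1a was most like Kcnj8 (0.869), but within cobalt tumours, where Cdkn1a varied least, that value was 0.556. Mdm2 was most like Smurf2 (0.847), at 0.998 within spontaneous and 0.053 within cobalt tumours. The genes were those with the highest pooled r among 11704 and the values are descriptions without a test.

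Other genes that p53 is known to raise were called in both directions. Of 41 measured among 45 listed, 14 were higher and 3 lower in spontaneous tumours by limma, beside 16.4% and 18.2% of all genes, and 10 were higher and 6 lower in cobalt tumours, beside 14.7% and 19.3%. The same shares of all genes apply to the counts of each list that follows, and no list was tested against them. The 41 genes had median log2 differences of 0.28 and 0.10, beside -0.03 over all genes in both comparisons. Without cobalt tumour 6 the counts in cobalt tumours were 12 and 7. None of the 41 was called between the tumour groups, where their median was -0.19 beside -0.00024 over all genes. At an unadjusted p under 0.05, 2 of the 41 were higher there and 5 lower, where 11.6% of all genes reached that level.

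Among cell cycle and senescence targets, 4 of 10 were higher in spontaneous tumours and 2 in cobalt tumours, and none was lower. Psrc1, a microtubule-associated protein, rose 12.5-fold from a log2 level of 5.25 ± 0.14 to 8.90 ± 1.10 (SD, n = 6) in spontaneous tumours and 5.48-fold in cobalt tumours. Gadd45a, a stress sensor that binds p21 and PCNA, rose 2.34-fold and 1.70-fold with ranges that overlapped control lung. Ckap2, a spindle protein, rose 2.54-fold in spontaneous tumours.

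Of 12 cell death targets, 3 were higher and none lower in spontaneous tumours, and 3 were higher and 1 lower in cobalt tumours. Perp, a desmosome protein, rose 2.66-fold and 2.07-fold, and Dram1, a lysosomal membrane protein that promotes autophagy, 2.40-fold and 2.96-fold. Eda2r, an ectodysplasin receptor, rose 2.43-fold in spontaneous tumours, and Siva1, a proapoptotic adaptor, rose 1.74-fold in cobalt tumours. Pmaip1, which encodes the BH3 protein NOXA, fell 4.19-fold in cobalt tumours (limma adjusted p = 0.0349), from a log2 level of 8.05 ± 0.33 to 5.98 ± 1.15 (SD, n = 6), and its ranges overlapped.

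The 7 DNA repair and nucleotide supply targets went both ways, with 2 higher and 2 lower in spontaneous tumours and 1 higher and 3 lower in cobalt tumours. Ddb2, the damage sensor of nucleotide excision repair, rose 1.83-fold and 1.97-fold, wholly above control lung in both. Polk, a translesion polymerase, rose 1.23-fold in spontaneous tumours. Fancc fell 1.44-fold and 1.40-fold, Rrm2b, the p53-induced subunit of ribonucleotide reductase, 1.40-fold and 1.29-fold, and Ercc5 fell 1.35-fold in cobalt tumours.

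Of 7 measured targets in metabolism and oxidant defence, 2 were higher in each tumour group, none was lower in spontaneous tumours and 1 was lower in cobalt tumours. Ddit4, an inhibitor of mTORC1, rose 2.52-fold and 2.31-fold. Sesn2, the paralogue of Sesn1, rose 1.59-fold and 1.68-fold, whereas Sesn1 fell in the same arrays. Ephx1, the microsomal epoxide hydrolase, was 2.81-fold lower in cobalt tumours, wholly below control lung. Of 5 other measured targets, 3 were higher and 1 lower in spontaneous tumours and 2 higher and 1 lower in cobalt tumours. Kitl, the ligand of the KIT receptor, fell 7.05-fold and 9.86-fold, and Rps27l rose 1.86-fold and 1.52-fold. Dglucy rose 2.47-fold and 1.87-fold, and Slc19a2, a thiamine transporter, rose 2.04-fold in spontaneous tumours.

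**Figure D5:**
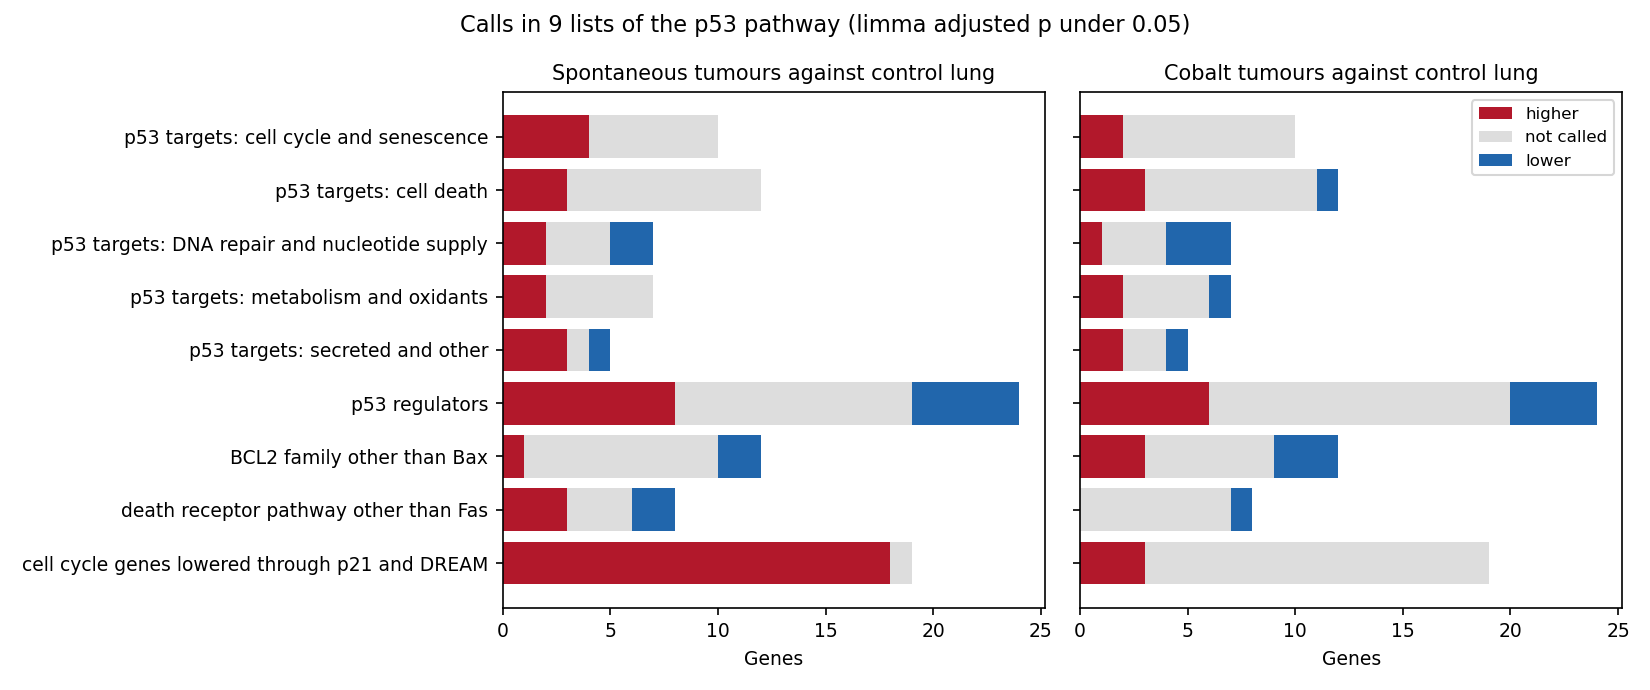
Number of genes called higher, called lower or not called (limma adjusted p under 0.05) in 9 lists of the p53 pathway, for each tumour group against the same 6 control lungs. Of the cell cycle genes lowered through p21, 18 of 19 were higher in spontaneous tumours and 3 of 19 in cobalt tumours.

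Of 24 measured regulators of p53, 8 were higher and 5 lower in spontaneous tumours, beside 16.4% and 18.2% of all genes, and 6 higher and 4 lower in cobalt tumours, beside 14.7% and 19.3%. Cdkn2a, whose locus encodes the Mdm2 inhibitor ARF as well as p16, rose 2.23-fold and 2.04-fold from a low log2 level of 4.87 ± 0.24 (SD, n = 6) in control lung. Chek1, the checkpoint kinase, rose 2.01-fold and 1.87-fold, and Usp10, a deubiquitinase of p53, 1.70-fold and 1.64-fold. Trp53bp2 and Ppp1r13b, the ASPP proteins that steer p53 to death genes, fell, the first by 2.13-fold and 2.09-fold and the second by 1.56-fold and 1.5-fold. Trp73, a p53 relative, fell 1.55-fold and 1.49-fold, and Hipk2, a kinase that phosphorylates p53, fell 1.87-fold in cobalt tumours.

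The called apoptosis genes beside Fas went both ways. Of 12 BCL2 family genes, 1 was higher and 2 lower in spontaneous tumours, where 16.4% and 18.2% of all genes were, and 3 were higher and 3 lower in cobalt tumours, where 14.7% and 19.3% were. The BH3 gene Bmf rose 2.52-fold and 2.02-fold, and the survival genes Bcl2 and Bcl2l2 fell 1.60-fold and 1.47-fold in spontaneous tumours and 1.48-fold each in cobalt tumours. Bcl2l1, which encodes BCL-XL, rose 1.58-fold in cobalt tumours, Bcl2l11 (BIM) rose 1.40-fold there and Bik fell 1.84-fold. Of 8 measured genes of the death receptor pathway, 3 were higher and 2 lower in spontaneous tumours, and none was higher and 1 lower in cobalt tumours. Cflar, the inhibitor of caspase activation at Fas, fell with it, 1.90-fold and 2.00-fold. In spontaneous tumours Casp8, the caspase that Fas activates, rose 1.51-fold, the adaptor Tradd 1.5-fold and Cycs 1.45-fold, while Tnfrsf1a fell 1.28-fold.

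Cell cycle genes that p53 lowers through p21 and the DREAM repressor complex were nearly all higher in spontaneous tumours. Of 19 measured, 18 were higher and none lower in spontaneous tumours, with a median log2 difference of 1.72, and 3 were higher and none lower in cobalt tumours, with a median of 0.55. Rrm2 rose 5.12-fold, Ect2 4.31-fold and Birc5, which encodes survivin, 4.23-fold in spontaneous tumours. The 3 genes called in cobalt tumours, Kif23, Cks2 and Cdk1, rose 3.89-fold, 2.5-fold and 2.29-fold there and 3.25-fold, 4.03-fold and 4.02-fold in spontaneous tumours. The mean of the 19 genes was 6.12 to 6.48 in control lung, 7.08 to 8.67 in spontaneous tumours and 5.83 to 7.87 in cobalt tumours. Cobalt tumours 4 and 6 lay below every control lung, at 6.10 and 5.83, and the other 4 between 7.15 and 7.87, above them. Without cobalt tumour 4 or without tumour 6 the count of higher genes in cobalt tumours was 6. The groups of tumours overlapped, the median difference between them was -1.01, and none of the 19 genes was called between them by limma. At an unadjusted p under 0.05, 15 of the 19 were lower in cobalt tumours and none higher, beside 11.6% of all genes in either direction. Cdkn1a RNA, which encodes the p21 upstream of this repression, was called in neither tumour group. The part of p21 and the DREAM complex in the levels of these 19 genes was not tested.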

How the data were processed

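The authors deposited log2 expression values of 45101 probe sets on 18 arrays, and per the submitters' processing notes RMA made them, with no version or settings given. RMA usually equalises the distributions of arrays, which can hide a shift of all genes. Of these probe sets, 34945 carried 1 symbol, 932 several and 9160 none in GEO's platform annotation, and 64 were controls. 34741 matched a RefSeq symbol. The probe set with the highest mean stood for each of 18193 genes. limma 3.58.1 (lmFit and eBayes, R 4.3.3) was fitted to all genes and arrays with group as the only term, with Benjamini-Hochberg adjustment per comparison, two-sided, and a threshold of 0.05. The script was tested on simulated data. Pairs of members were tested over the 12 tumours by permutation with numpy 2.4.6, and scipy 1.17.1 gave the ranks and the adjustment. The design named all 10 members, but 8 were measured, so 28 pairs were tested. Named genes were all measured members, up to 3 genes each way per pathway list among those called, by size of change, and the 3 genes most like each member. Members and lists were chosen with earlier results of these data known. Alternatives covered normalization, filter, probe set choice, variance model, array weights, arrays fitted, replicate block, sex-linked RNA, a permutation test and each array left out. Deviations of same-numbered arrays had correlations of -0.338 to 0.195, which cannot show whether numbers pair samples. Nothing in the labels says that they do, so the replicate block was kept as an alternative.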

Additional observations from a re-analysis of the deposited data

Results flagged for a closer look

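Phlda3 was 9.21 in control lung 1, apart from the other 5 control lungs by a gap of 0.633 of the group's range, where the critical value for 6 samples is 0.625. Trp53inp1 was 9.90 in spontaneous tumour 3, apart from the other spontaneous tumours by 0.647 of the range. These were 2 of 24 groups of 6 arrays examined, and chance flags about 1 in 20 such groups. Phlda3 also differed between the tumour groups, with cobalt tumours lower by a log2 difference of -0.76 (limma adjusted p = 0.0380). The cause of these values was not tested.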

How the results depend on the processing

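The calls of Ccng1, Zmat3, Sesn1 and Fas in spontaneous tumours, and of Zmat3, Sesn1, Fas and Phlda3 in cobalt tumours against control lung, kept their direction and side of the threshold in all 30 alternatives. Zmat3 in cobalt tumours did so narrowly, with a highest limma adjusted p of 0.04995. Ccng1 in cobalt tumours kept its call in 29 and lost it with the mean of its probe sets (0.33, limma adjusted p = 0.230). Trp53inp1 in cobalt tumours became called in 5 of 30 (adjusted p from 0.0230, without cobalt tumour 6, to 0.321 over all).

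Between the tumour groups, where 1 member was called, 0 were called with cyclic loess, with array weights, with only the 12 arrays compared, with the replicate block (Phlda3 adjusted p = 0.108), with high Xist only, without spontaneous tumours 2 and 6, and by exact permutation; leaving out each array gave 0 to 1. Over all genes, 15 were called, against 26 without the dimmest genes, 24 with array weights, 1 with only the 12 arrays compared, 1 with the replicate block, 29 with the Y-linked level as covariate, 0 with high Xist only, 65 without spontaneous tumours 2 and 6, 0 by permutation, which could call none there, and 1 to 82 with each array left out, 82 without cobalt tumour 6. The block changed no other call of a member. Correlated pairs with an adjusted p under 0.05 numbered 1 without cobalt tumour 6 in place of 2. The cause of these changes was not tested.

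Signs turned only where no call was made. Against control lung, Mdm2 in spontaneous tumours was 0.0093 with the mean of its probe sets and -0.18 to 0.0016 with each array left out, Phlda3 was 0.077 with the Y-linked covariate, 0.18 with high Xist only and -0.11 to 0.083 with each array left out, Trp53inp1 was 0.089 with the Y-linked covariate, and Cdkn1a in cobalt tumours was -0.011 with cyclic loess. Between the tumour groups, Cdkn1a was 0.077 and Sesn1 0.29 with high Xist only, and with each array left out they ranged from -0.29 to 0.0039 and from -0.40 to 0.086. RMA values carry no detection call, so signal over background is unknown for the dim probe sets.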

Other observations

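Of 8 macrophage markers, 4 were higher and none lower in spontaneous tumours by limma, and in cobalt tumours 1, Cd68, was higher, 1, Csf1r, was lower and 6 were not called. Their mean level was 8.79 to 9.60 in control lung, 9.36 to 11.41 in spontaneous tumours and 8.91 to 10.22 in cobalt tumours, and both tumour groups overlapped control lung. Ciliated cell markers were lower in both tumour groups, 7 of 7 in each, with means of 10.08 to 10.44 in control lung, 6.67 to 8.43 in spontaneous tumours and 6.24 to 9.65 in cobalt tumours. All 6 heart muscle markers, which in mouse lung come from the muscle sleeve of the pulmonary veins, were lower in both tumour groups, at 10.54 to 11.25 in control lung, 5.18 to 7.73 in spontaneous tumours and 5.36 to 7.93 in cobalt tumours. The part of these cell types in the levels of the 8 target genes was not tested.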
